A study of Mus musculus with 6 samples.

Results

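MHC class II chains and the genes that load them with peptide were followed through 9 genes, H2-Aa, H2-Ab1, H2-Eb1, H2-DMa, H2-Oa, H2-Ob, Cd74, Ciita and Ctss. They were found by symbol, taking each probe set of the array that is assigned to a single gene, which gave 17 of 45037 probe sets. The 9 genes were chosen on their differences between the fractions over all 6 arrays, seen beforehand, so those differences are given as a description and carry no p-value. RNA came from tumours that grew under the skin of syngeneic mice from 344SQ, a lung adenocarcinoma line of a mouse with the alleles KrasLA1/+ and p53R172HdelG/+. Flow cytometry split the tumour cells into a CD133 high fraction (3 arrays) and a CD133 low fraction (3 arrays), both carrying the same alleles and neither labelled with a treatment. CD133 is a surface glycoprotein encoded by Prom1. The line is a single source, no age of the mice is given, and the labels do not say whether arrays came from separate animals or sorts.

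Class II molecules are pairs of an alpha and a beta chain that show peptides from the endosome to CD4 T cells. The invariant chain, encoded by Cd74, fills the groove of a new molecule, cathepsin S (Ctss) trims it to a short remnant, and H2-M, which contains H2-DMa, exchanges that remnant for peptide. H2-O, the pair of H2-Oa and H2-Ob, holds H2-M back, and is known mainly from B cells, thymic epithelium and some dendritic cells, whereas the classical chains are made by all professional antigen-presenting cells. Ciita is the coactivator that switches class II genes on. It does not bind DNA itself and joins factors on an X box, bound by the RFX complex, and a Y box, bound by NF-Y.

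Both boxes can be read in the promoters of the H2-O chains and of classical chains alike, which is why the windows of H2-Oa, H2-Ob, H2-Aa and H2-Eb1 are shown. The sequences are RefSeq's for GRCm38.p6, from 250 bases before to 50 bases after the annotated start, and lie at chr17:34092129-34092428 (plus strand), chr17:34238655-34238954 (plus strand), chr17:34287774-34288073 (minus strand) and chr17:34305617-34305916 (plus strand). Capitals mark GCAAC, a core of the X box, and TGATTGG, a core of the Y box, where the first stands before the second on the gene's strand.
H2-Oa: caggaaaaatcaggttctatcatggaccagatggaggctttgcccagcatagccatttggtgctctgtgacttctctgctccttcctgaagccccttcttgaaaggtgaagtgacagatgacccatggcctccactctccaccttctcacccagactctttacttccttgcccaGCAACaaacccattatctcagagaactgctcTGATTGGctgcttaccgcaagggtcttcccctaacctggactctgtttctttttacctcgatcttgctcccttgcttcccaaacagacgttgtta
H2-Ob: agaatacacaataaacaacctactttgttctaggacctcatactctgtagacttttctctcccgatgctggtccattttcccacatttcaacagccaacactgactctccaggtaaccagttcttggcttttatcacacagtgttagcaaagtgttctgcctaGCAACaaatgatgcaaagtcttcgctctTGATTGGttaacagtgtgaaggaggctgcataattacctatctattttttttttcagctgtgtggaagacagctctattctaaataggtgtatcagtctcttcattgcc
H2-Aa: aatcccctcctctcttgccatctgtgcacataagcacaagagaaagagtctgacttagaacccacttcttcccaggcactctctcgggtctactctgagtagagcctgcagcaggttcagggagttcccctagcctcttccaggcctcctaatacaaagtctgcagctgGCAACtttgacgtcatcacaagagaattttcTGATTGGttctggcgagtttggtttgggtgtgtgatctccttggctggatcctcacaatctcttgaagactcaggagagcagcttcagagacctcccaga
H2-Eb1: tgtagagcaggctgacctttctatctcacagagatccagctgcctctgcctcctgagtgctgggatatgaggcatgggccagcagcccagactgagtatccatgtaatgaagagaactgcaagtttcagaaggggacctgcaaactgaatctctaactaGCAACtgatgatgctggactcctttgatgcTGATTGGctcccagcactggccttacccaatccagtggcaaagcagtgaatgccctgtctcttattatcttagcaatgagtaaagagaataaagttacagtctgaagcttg
The gap between the motifs was 26 bases in H2-Oa, 23 in H2-Ob, 26 in H2-Aa and 25 in H2-Eb1. TGATTGG ended 38, 52, 43 and 54 bases before the start in that order of genes. Of 32851 windows of 300 bases, 35.2% held GCAAC on either strand, 7.82% held TGATTGG, and 0.262% held both in this order, at most 30 bases apart, on the same strand. Windows of 6 member genes were searched, and those of H2-DMa and Ctss did not hold the pair. The search of member windows left out Cd74, and H2-Ab1 and Ciita had no window. In this assembly the protein-coding genes follow each other on chromosome 17 in the order H2-Oa, Brd2, H2-DMa, H2-DMb2, H2-DMb1, Psmb9, Tap1, Psmb8, Tap2, H2-Ob, H2-Ab1, H2-Aa and H2-Eb1.

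The arrays of the CD133 high fraction were not alike. CD133 high replicate 1 had a mean Spearman rho across probe sets of 0.931 with the other CD133 high arrays and of 0.973 with the CD133 low arrays. Between the 3' and the middle Gapdh control the log2 value differed by −0.13 on CD133 high replicate 1 and by 0.44 and 0.46 on replicates 2 and 3, against −0.09 to −0.07 on the CD133 low arrays. Added hybridisation controls averaged 10.38, 11.29 and 11.04 on CD133 high replicates 1, 2 and 3, and 10.19 to 10.51 on the CD133 low arrays. Prom1 had 6.61 ± 0.203 in the CD133 high and 5.82 ± 0.294 in the CD133 low fraction (log2 value, SD, n = 3 arrays each). Genes of tumour epithelium and of leukocytes were both bright in both fractions: Krt8, a simple epithelial keratin, had 12.62 to 12.95 in CD133 high and 12.26 to 12.59 in CD133 low, and Ptprc, which encodes CD45, had 12.74 to 13.20 and 12.77 to 13.20 in the same order. Both fractions thus held epithelial and leukocyte transcripts, and in such bulk RNA fewer cells of a type and less RNA per cell cannot be told apart.

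The chains of H2-O were low on every CD133 high array. H2-Ob, the beta chain, had log2 values of 7.80, 7.83 and 8.06 in CD133 high and 9.67, 9.95 and 9.95 in CD133 low. The 3 CD133 high arrays lay close together, with replicate 1 the lowest, and no array came near the other fraction. The difference, CD133 high minus CD133 low, was −1.96 (SE 0.16 from limma), which is 3.89-fold higher in CD133 low, and it lay between −2.05 and −1.91 when any single array was left out. H2-Oa, the alpha chain, had 7.60, 6.34 and 6.11 in CD133 high and 9.14, 9.20 and 8.83 in CD133 low. Its difference was −2.37 (SE 0.39), or 5.18-fold, and CD133 high replicate 1 stood between the other CD133 high arrays and the CD133 low arrays. Relative to the CD133 low mean, H2-Oa stood at −1.46, −2.72 and −2.95 on CD133 high replicates 1, 2 and 3 and H2-Ob at −2.06, −2.02 and −1.79. Between the highest CD133 high and the lowest CD133 low array there was a gap of 1.61 for H2-Ob and 1.23 for H2-Oa, and of at most 0.27 for any other member probe set that was lower in CD133 high.

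**Figure D1:**
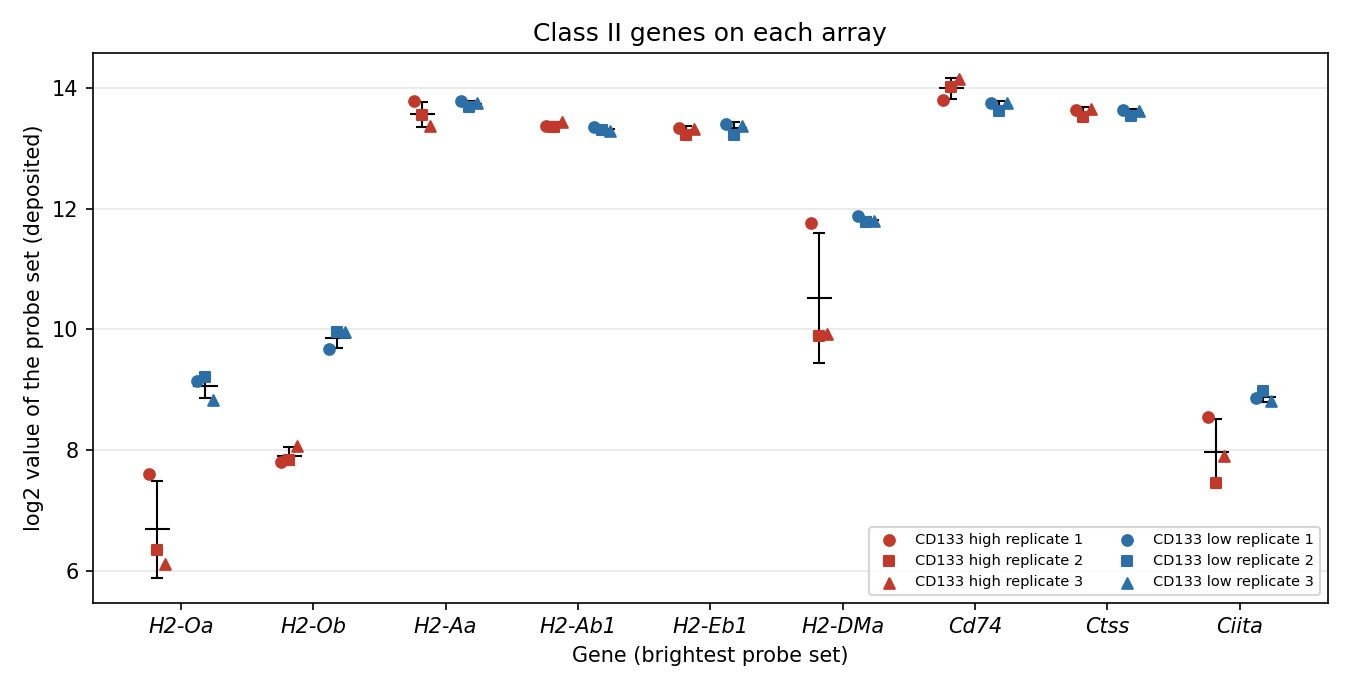
Log2 value of the brightest probe set of each gene on each array, CD133 high (red) left of CD133 low (blue), with the mean and SD of 3 arrays. H2-Oa and H2-Ob are separated by fraction on all arrays, H2-DMa and Ciita mainly on CD133 high replicates 2 and 3, and the remaining genes differ by less than 0.3 in their means.

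The classical chains differed little between the fractions at their brightest probe sets. H2-Aa, the alpha chain of I-A, had 13.77, 13.55 and 13.37 in CD133 high and 13.79, 13.69 and 13.74 in CD133 low, a difference of −0.18 (SE 0.18). H2-Ab1, its beta partner, had 13.37, 13.35 and 13.44 in CD133 high and 13.34, 13.30 and 13.29 in CD133 low, a difference of 0.07 (SE 0.15). H2-Eb1, the beta chain of I-E, had 13.34, 13.21 and 13.32 in CD133 high and 13.41, 13.23 and 13.38 in CD133 low, a difference of −0.04 (SE 0.16). For H2-Aa, CD133 high replicates 2 and 3 lay below all CD133 low arrays while replicate 1 lay among them; the arrays of H2-Eb1 overlapped, and those of H2-Ab1 were separated by less than 0.03.

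The other probe sets of H2-Aa and H2-Ab1 gave another picture. Probe set 1452431_s_at of H2-Aa had 13.31, 12.26 and 12.24 in CD133 high and 13.34, 13.24 and 13.34 in CD133 low, a difference of −0.70 (SE 0.31). Probe set 1451721_a_at of H2-Ab1 had 13.11, 12.25 and 11.90 in CD133 high and 13.27, 13.17 and 13.13 in CD133 low, a difference of −0.77 (SE 0.31). On both, CD133 high replicate 1 sat with or just below the CD133 low arrays and replicates 2 and 3 were low. Over the 4 probe sets of H2-Aa the difference ran between −0.85 and −0.18, and over the 3 of H2-Ab1 between −0.96 and 0.07, with the dimmest probe set at the low end for each gene. The difference of H2-Aa was thus negative on each of its 4 probe sets, and only its size depended on the probe set. No direction can be given for H2-Ab1 without naming the probe set. All 3 of H2-Ab1 end in _s_at, _a_at or _x_at, as do all 4 of H2-Aa, which marks probes shared between transcripts or similar sequences.

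Brightness moved with this disagreement. The brightest probe sets of H2-Aa, H2-Ab1, H2-Eb1, Cd74 and Ctss stood within 0.97 of the highest value on their own array. Of the 293 probe sets of the array with a mean of 13 or more, 15.02% differed by over 0.5 between the fractions, against 30.9% of the 2015 with a mean of 11 to 13. The part of brightness, or of the Gapdh 3' to middle difference of the same 2 arrays, in the disagreement was not tested.

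**Figure D2:**
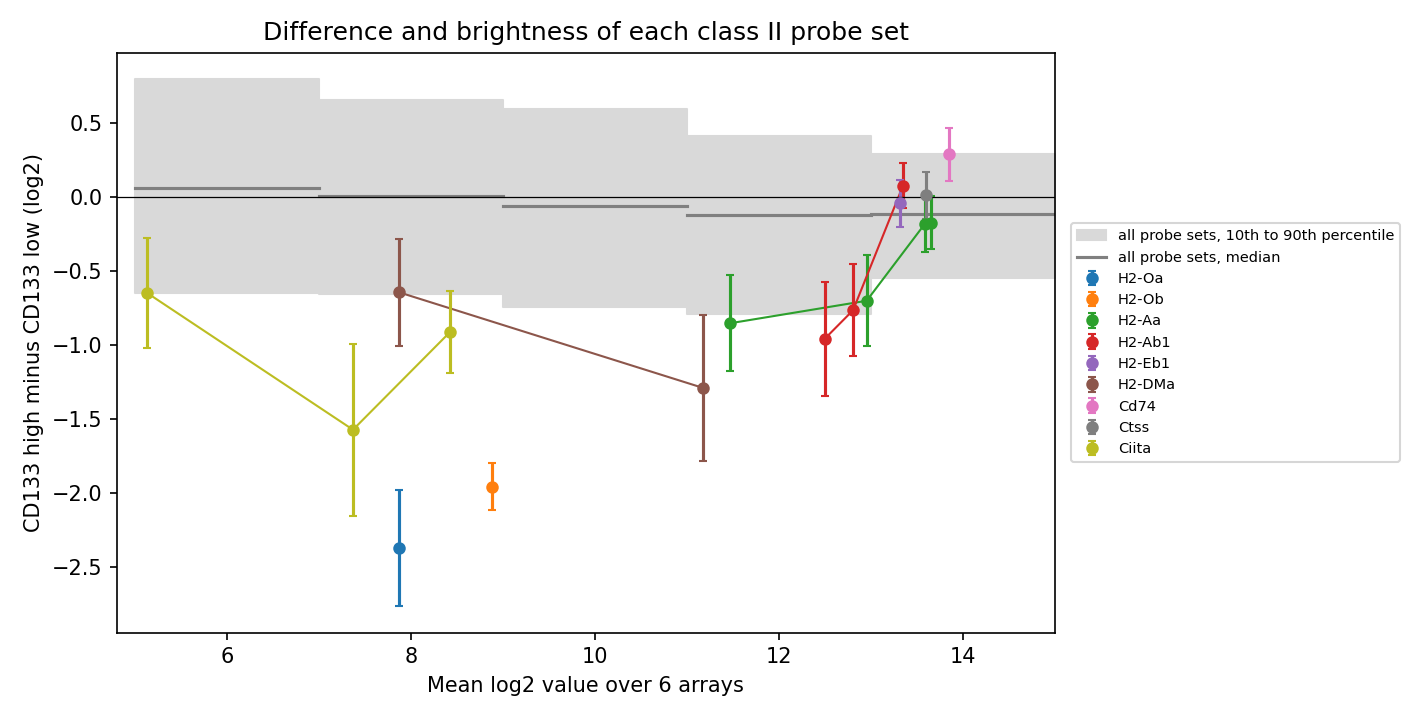
Difference between CD133 high and CD133 low (log2, with SE) of each of the 17 probe sets against its mean log2 value over 6 arrays, lines joining probe sets of a gene, and for all probe sets the median and the 10th to 90th percentile in 5 brightness classes. For H2-Aa and H2-Ab1 the difference nears 0 at the brightest probe sets. H2-Oa and H2-Ob lie below the grey range at −2.37 and −1.96. So do H2-DMa at its brightest probe set (−1.29) and Ciita at its brighter ones (−0.91 and −1.57). The dimmest probe sets of H2-Aa (−0.85) and H2-Ab1 (−0.96) do as well.

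Cd74 was the member that was higher in CD133 high by the most. It had 13.80, 14.02 and 14.15 in CD133 high and 13.76, 13.62 and 13.75 in CD133 low, a difference of 0.29 (SE 0.18), and the fractions were separated by a narrow gap that CD133 high replicate 1 set. Its single probe set reached within 0.09 of the top of an array. Ctss, the protease that trims the invariant chain, had 13.64, 13.51 and 13.65 in CD133 high and 13.63, 13.53 and 13.62 in CD133 low, a difference of 0.01 (SE 0.16) with overlapping arrays.

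H2-DMa and Ciita followed the split within the CD133 high fraction. H2-DMa, the alpha chain of H2-M, had 11.77, 9.88 and 9.92 in CD133 high and 11.87, 11.77 and 11.80 in CD133 low. CD133 high replicate 1 was within 0.05 of the CD133 low mean and 0.0075 below the lowest CD133 low array, while replicates 2 and 3 stood at −1.93 and −1.89 from it, so the difference of −1.29 (SE 0.49) rested on those arrays and was −1.91 without replicate 1. A dimmer probe set of H2-DMa differed by −0.65 (SE 0.36), with replicate 1 above all CD133 low arrays. Ciita had 8.54, 7.46 and 7.90 in CD133 high and 8.85, 8.97 and 8.81 in CD133 low, a difference of −0.91 (SE 0.28). Here all CD133 high arrays were below all CD133 low arrays, replicate 1 by the least. The other probe sets of Ciita differed by −1.57 (SE 0.58) and −0.65 (SE 0.37), and on both CD133 high replicate 1 lay among the CD133 low arrays. The dimmest of them is the single member probe set with values under 5.

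Across the 17 probe sets, all CD133 high arrays were below all CD133 low arrays in 6 and above them in 2, against 10.5% and 10.3% of all 45037 probe sets. On 13 of the 17, CD133 high replicates 2 and 3 were both below every CD133 low array, as on 26.2% of all probe sets. On 7 of these 13 replicate 1 was not, against 15.7% of all. In limma 1 member probe set, that of H2-Ob, passed an adjusted p of 0.05 over the whole array, as 0.182% of all probe sets did; since the contrast chose the members, nothing is read from these shares. The median difference was −0.70 over the 17 probe sets and −0.18 over the 9 genes at their brightest probe set, beside 0.02 over all probe sets and 0.0013 over 18193 genes.

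**Figure D3:**
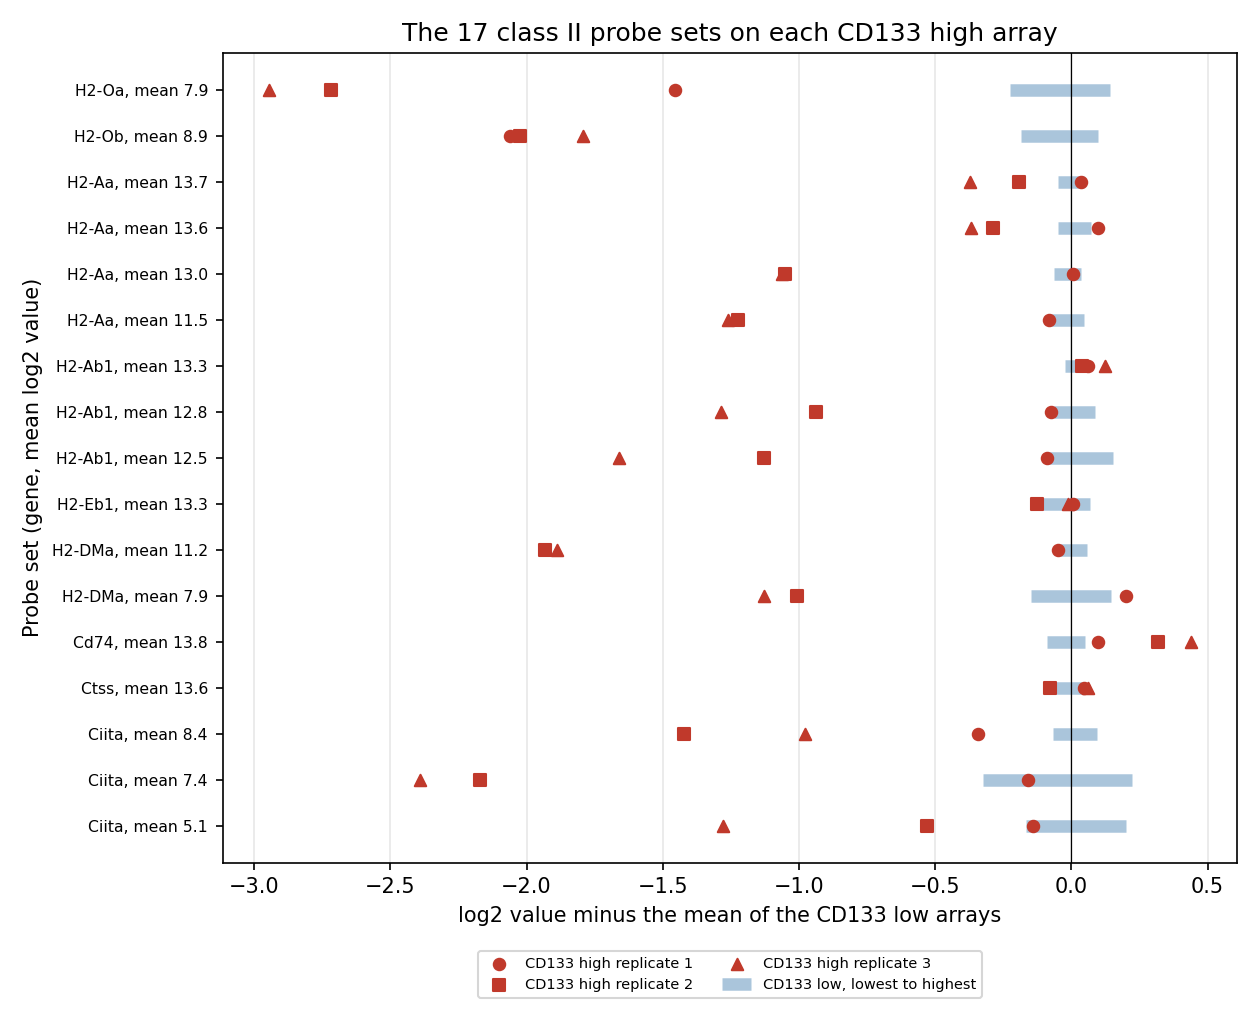
Each of the 17 probe sets on the 3 CD133 high arrays (red symbols), as log2 value minus the mean of the CD133 low arrays, whose lowest to highest value is the blue bar. Replicate 1 lies clearly left of the bar for H2-Oa and H2-Ob (at −1.46 and −2.06) and near it for the other probe sets, whereas replicates 2 and 3 are left of it on 13.

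Set side by side, the mean of H2-Oa and H2-Ob stood at −1.76, −2.37 and −2.37 from the CD133 low mean on CD133 high replicates 1, 2 and 3. The mean of H2-Aa, H2-Ab1, H2-Eb1 and Cd74, the class II genes known as abundant, was at 0.05, 0.01 and 0.04 on the same arrays. This mean joins genes that moved in opposite directions. On CD133 high replicates 2 and 3, H2-Aa stood at −0.19 and −0.37 and Cd74 at 0.32 and 0.44. The difference of the H2-O chains minus that of the abundant genes was −2.20, with a spread of 0.340 (SD over 3 CD133 high arrays) and 0.157 (SD over 3 CD133 low arrays). With the mean of all probe sets of a gene in place of the brightest, the value was −1.97.

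Genes with profiles nearest to the H2-O chains were sought among 12936 genes with a mean of at least 6, by the root mean square difference of centred log2 values over the 6 arrays. These were Ms4a4b (0.106), Cd5 (0.121), Cxcr6 (0.123), Gimap4 (0.135) and Gimap3 (0.145). Cd5, a surface regulator of antigen receptor signalling, had 6.20, 5.84 and 5.83 in CD133 high and 8.29, 8.26 and 8.22 in CD133 low. Those nearest to the mean of the abundant class II genes were Hsd17b12 (0.0214), Lyz1 (0.0242), Elovl1 (0.0296), Rps29 (0.0308) and Trappc2 (0.0309), all nearly level over the arrays. Lyz1, a lysozyme, had 13.50, 13.43 and 13.52 in CD133 high and 13.55, 13.38 and 13.46 in CD133 low.

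Some lymphocyte markers were low on the same arrays as the H2-O chains and others were not. The marker lists were chosen with earlier results of these data known, so their counts and p-values describe these lists alone. Among 15 measured B-cell markers 5 fell in CD133 high and 0 rose, with a median difference of −1.25, where 0.231% of all genes fell and 0.022% rose. These were Cd79b (−4.10), Cxcr5 (−3.25), Cd79a (−3.06), Fcmr (−3.01) and Ms4a1 (−2.81), among them both signalling chains of the B-cell receptor (limma, adjusted p = 0.0114, 0.0187, 0.0168, 0.0114 and 0.0311 in this order). Among 11 T-cell markers 5 fell and 0 rose, with a median of −2.22: Cd3g (−2.81), Cd8b1 (−2.42), Cd3e (−2.34), Cd5 (−2.30) and Cd2 (−1.68), all membrane proteins of T cells (limma, adjusted p = 0.0408, 0.0186, 0.023, 0.0186 and 0.037). In the other direction, 5 B-cell markers had positive differences, Fcrla (1.41), Bank1 (1.13), Ebf1 (0.42), Blk (0.11) and Pax5 (0.07). So did 2 T-cell markers, Cd4 (0.44) and Cd8a (0.31), and none of the markers with positive differences passed. Cd4 was dim, with log2 values of 1.18 to 3.55, under 5 on every array. Without CD133 high replicate 1, 8 markers of each list fell, 2 B-cell markers and 1 T-cell marker rose, and 14.6% of all genes fell and 11.7% rose. Without any 1 of the other 5 arrays 0 fell in limma, where at most 1 of all 45037 probe sets was called. In those fits 8 of each list had an unadjusted p under 0.05 in limma, as 2989 to 5025 of the 45037 probe sets did. The summed linear values ran over 3243 to 9463 in CD133 high and 10952 to 13268 in CD133 low for B cells, and over 1919 to 2448 and 7208 to 8825 for T cells. No B-cell or T-cell marker was listed at 0, and the part of lymphocyte RNA in the H2-O result was not tested.

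Markers of other antigen-presenting cells were read in the same way, with no test of their difference from the lymphocyte lists. Of 11 dendritic cell markers 0 passed in limma (3 at an unadjusted p under 0.05, all lower, where 18.2% of all genes reached it), with a median of −0.49 and summed values of 6119 to 8909 in CD133 high and 9680 to 11041 in CD133 low. Ccr7, a homing receptor that T cells also carry, differed by −2.67 (adjusted p = 0.0633), Siglech of plasmacytoid cells by −1.84, the growth factor receptor Flt3 by −0.82 and the integrin Itgax by −0.49. The 2 dendritic cell markers with positive differences were Zbtb46 (0.36) and Ly75 (0.06). Of 14 macrophage markers 0 passed (3 at an unadjusted p under 0.05), with a median of 0.05 and summed values of 70847 to 78024 in CD133 high and 71823 to 75923 in CD133 low. The scavenger receptor Cd163 differed by 1.24, the mannose receptor Mrc1 by 0.58, the Fc receptor Fcgr1 by −0.56 and Aif1 by −0.65. Neither list had a marker at 0. The macrophage median and the mean of the abundant class II genes at their brightest probe sets were within 0.1 of the CD133 low mean on all 3 CD133 high arrays. Single macrophage markers, single abundant genes such as H2-Aa and Cd74, and dimmer class II probe sets were not.

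Pan-leukocyte and epithelial lists divided the CD133 high arrays in different ways. From the CD133 low mean, the median of 12 pan-leukocyte genes was at −0.09, −0.92 and −1.12 on CD133 high replicates 1, 2 and 3, the same split as H2-DMa, and their summed values were 41394 to 71938 in CD133 high and 68493 to 69636 in CD133 low. Among them Cd48 differed by −1.51, Arhgdib by −1.17, Was by −0.89 and Coro1a by −0.83, and 0 passed in limma (5 at an unadjusted p under 0.05, beside 18.2% of all genes). The 3 with positive differences were Cd37 (0.35), Cd53 (0.21) and Ptprc (0.03). The 11 epithelial markers had a median of −0.13, with 0 past the threshold (1 at an unadjusted p under 0.05) and summed values of 23691 to 31118 in CD133 high and 25452 to 28286 in CD133 low. Cldn7 differed by −0.73, Krt8 by 0.41, Krt18 by −0.42 and Cldn4 by −0.42, and Esrp1 was listed at 0 on 5 of 6 arrays.

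**Figure D4:**
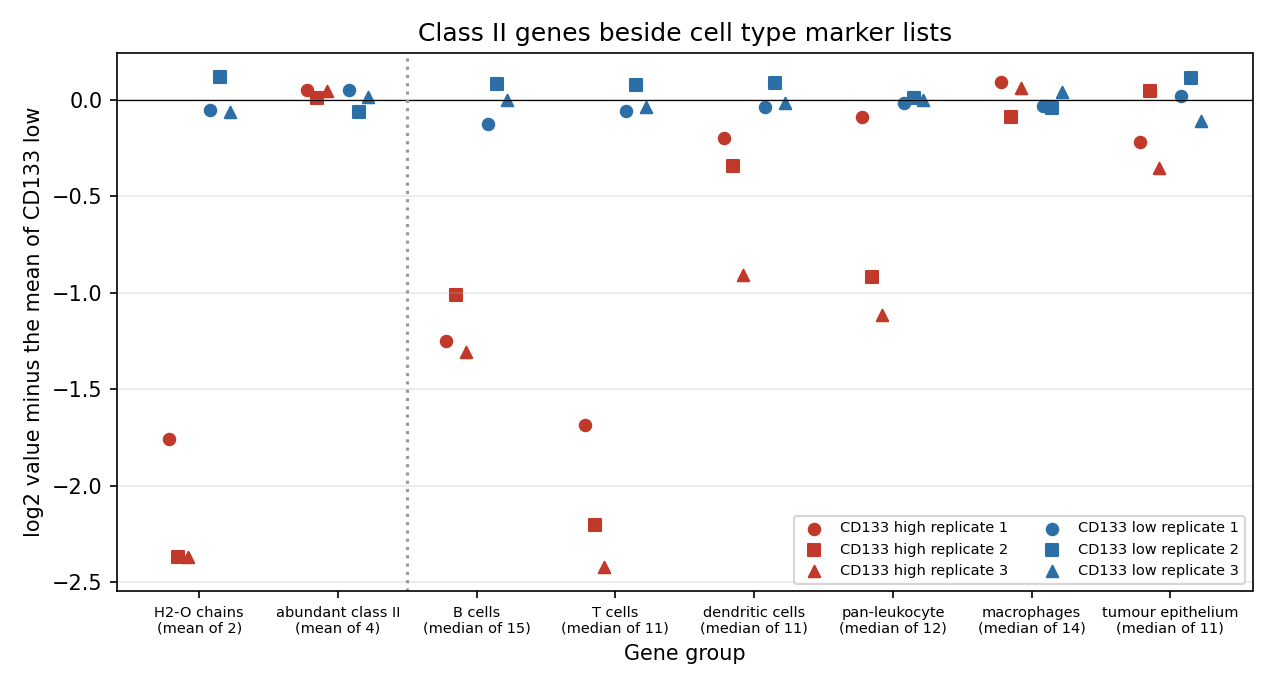
Mean of the class II groups and median of each marker list on every array, as log2 value minus the mean of the CD133 low arrays, CD133 high (red) left of CD133 low (blue). The H2-O mean and the B-cell and T-cell medians are low on all 3 CD133 high arrays, the pan-leukocyte median on replicates 2 and 3. The dendritic cell median is also below the CD133 low arrays on all 3 (−0.20, −0.35 and −0.91 on replicates 1, 2 and 3). The abundant class II mean and the macrophage median lie within 0.1 of 0.

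The rest of the class II pathway was read from 48 measured genes outside the 9, of which 0 passed in limma; 10 were lower and 3 higher at an unadjusted p under 0.05, which 18.2% of all genes reached, and the median was −0.18. Without CD133 high replicate 1, 15 were lower and 6 higher past the threshold, or 43.8%, where 26.3% of all genes were called. The nearest to passing was Irf4, a transcription factor of lymphocytes. Irf4 had 7.96, 7.23 and 7.57 in CD133 high and 9.03, 9.42 and 9.61 in CD133 low, a difference of −1.77 (SE 0.25, limma, adjusted p = 0.0699, range over 16 settings 0.0053 to 0.439). All CD133 high arrays were below all CD133 low arrays by over 1, as for the H2-O chains.

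Among 15 transcription factors, Spib, an Ets factor of B cells and plasmacytoid dendritic cells, differed by −1.52 (adjusted p = 0.144) and Irf8, which myeloid cells also use, by −0.63. The RFX subunits that bind the X box differed by −0.16 (Rfx5), −0.42 (Rfxap) and −0.22 (Rfxank) with overlapping arrays. Of the NF-Y subunits that bind the Y box, Nfya and Nfyb differed by −0.29 and −0.20, and Nfyc had 10.24, 11.93 and 11.67 in CD133 high and 10.14, 10.18 and 10.14 in CD133 low (difference 1.13, SE 0.42). Nfyc was again set apart by CD133 high replicates 2 and 3.

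Interferon gamma induces Ciita in cells that are not antigen-presenting by profession. Ifng itself had 6.30, 4.79 and 4.76 in CD133 high and 7.49, 7.52 and 7.68 in CD133 low, a difference of −2.28 (SE 0.44, limma, adjusted p = 0.159). Its target Igtp differed by −0.79 (adjusted p = 0.154), Gbp3 by −0.37 and the receptor chain Ifngr1 by −0.62. The median over the 11 genes of this list was −0.40, and 5 of them had all CD133 high arrays below all CD133 low arrays, against 12.8% of all genes.

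H2-DMb2, a beta chain of H2-M, had 11.23, 11.08 and 10.20 in CD133 high and 12.04, 12.03 and 11.40 in CD133 low, a difference of −0.99 (SE 0.32, adjusted p = 0.297). All its CD133 high arrays were below all CD133 low arrays. H2-Ea and H2-Eb2 differed by 0.62 and −0.08 with overlapping arrays. Among 11 genes of endosomal processing, Ifi30, a thiol reductase, had 12.41, 11.04 and 10.91 in CD133 high and 12.65, 12.83 and 12.65 in CD133 low, a difference of −1.26 (SE 0.39). Cst3, an inhibitor of cathepsins, differed by −0.76, Ctsb by 0.37 and Lamp2 by 0.34, and the median of the list was 0.10. Of 8 genes of class II turnover and co-stimulation, Cd83, which protects class II from degradation, differed by −0.63, and the ubiquitin ligases Marchf8 and Marchf1 by 0.84 and 0.28. Cd40, a co-stimulatory receptor, differed by 0.40. None of the genes of these lists passed in limma, where the smallest adjusted p was 0.296, that of Cd83.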

How the data were processed

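RNA of 6 sorted tumour fractions was hybridised as biotinylated cRNA to Affymetrix mouse arrays, per the labels' protocols. The deposited values are log2 values of 45101 probe sets, as judged from the values themselves, and belong to a larger array than the one that the series' design text names; the gene assignments are those of the larger array. How the authors summarised and normalised them is not stated in these sources. After 64 control probe sets were set aside, 45037 were tested. The platform annotation gives 34945 of them 1 gene, 932 several and 9160 none; 34741 matched an Entrez gene of RefSeq, with 0 symbols changed. A gene is its brightest probe set by mean. Fractions came from the sorted fraction in the labels and replicate numbers from accession order, so numbers pair no arrays. No pair of arrays held equal values in over 702 probe sets. The spread that the p-values rest on is that between these arrays and may be technical, and the number of arrays limits precision.

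A linear model per probe set was fitted with limma 3.58.1 (R 4.3.3, with data.table, version 1.17.8) on all 6 arrays, as a two-sided test moderated by a variance trend, adjusted by Benjamini-Hochberg over all 45037, at a threshold of 0.05, and was tested on simulated data. Differences are CD133 high minus CD133 low, and errors are SDs of 3 arrays or model SEs. Tables and figures were made with Python 3.11.15 (pandas 2.3.3, numpy 2.4.6, matplotlib 3.10.9). An exact permutation test of 3 against 3 arrays could not reach the threshold and was not used. The members and gene lists were chosen with earlier results of these data known. The named genes are Prom1, the 9 members and the 5 nearest to each class II profile. In each list they are the genes past the threshold or otherwise up to 4 with the smallest p. Krt8, Ptprc, Esrp1, the RFX and NF-Y subunits and those of the closing section were chosen with their values in view. So were the lymphocyte, dendritic cell and pan-leukocyte markers with positive differences. The alternatives were 3 scalings, a floor of 5, leaving out the dimmer 50% of probe sets, 2 other variance models, 2 other probe set choices and leaving out each array.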

Additional observations from a re-analysis of the deposited data

How the results depend on the processing

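H2-Oa, H2-Ob, H2-DMa and Ciita were lower in CD133 high under all 12 alternatives run on each, between −2.83 and −2.09, −2.05 and −1.91, −1.91 and −0.97, and −1.20 and −0.66. For H2-Oa, H2-Ob, H2-Eb1 and Ctss, the floor of 5 and the 2 other probe set choices could not change the value. The floor could not for the other members either. Leaving out probe sets ending _s_at, _x_at or _a_at could not for H2-DMa and Ciita, nor averaging probe sets for Cd74. H2-Aa was lower under all 11 run on it (−0.48 to −0.08) and Cd74 higher under all 11 (0.21 to 0.38). H2-Eb1 and Ctss took both signs, between −0.10 and 0.05 and between −0.04 and 0.08. H2-Ab1 reversed to −0.55 with the mean of its probe sets, and lay between 0.03 and 0.17 under the others. The difference between the H2-O chains and the abundant class II genes lay between −2.40 and −2.09 when an array was left out, and was −2.28 with quantile normalization. It could not be computed without probe sets ending _s_at, _x_at or _a_at, since H2-Aa, H2-Ab1 and Cd74 have no others.

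The number of probe sets called depended on the settings. Against 82, it was 157 with equal 75th percentiles, 164 with equal medians, 36 with values below 5 set to 5, 7 without a variance trend, 185 with a robust trend and 175 without the dimmer 50% (which also leaves fewer probe sets to adjust over). It ran over 0 to 9603 when an array was left out, with 9603 without CD133 high replicate 1 and at most 1 without any other, where 2989 to 5025 had an unadjusted p under 0.05 in limma. Of the pathway genes outside the members, 1, Irf4, was called with equal medians or 75th percentiles, a robust trend, averaged probe sets per gene or without the dimmer 50% of probe sets, and 0 to 21 when an array was left out, with 21 without CD133 high replicate 1. With values below 5 set to 5, 2 B-cell and 1 T-cell markers fell, and without a variance trend 2 and 0. Elsewhere the cause was not tested. No paired analysis was possible because the labels number no replicates. The brightest class II genes had values near the top of an array, and whether this limits what can be seen of them was not tested.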

Other observations

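The B-cell list was divided, by genes chosen after their values were seen. Fcrla, an Fc receptor-like protein of B cells, had 9.25, 11.10 and 11.78 in CD133 high and 9.25, 9.36 and 9.28 in CD133 low. Bank1, an adaptor of B-cell receptor signalling, had 7.87, 10.42 and 10.77 in CD133 high and 8.35, 8.61 and 8.70 in CD133 low. Both were high on CD133 high replicates 2 and 3 alone (limma, adjusted p = 0.319 and 0.44), while Cd79b had 5.44, 5.73 and 5.79 in CD133 high and 9.45, 10.26 and 9.54 in CD133 low. Pax5, the transcription factor of B-cell identity, differed by 0.07 and Cd22 by −0.22. Pou2af1, a coactivator of B cells, had 7.62, 9.98 and 9.48 in CD133 high and 11.50, 11.70 and 11.66 in CD133 low, and it was CD133 high replicate 1 that was lowest.

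Some regulators of class II transcription were high on the same CD133 high arrays. Zxdc, a zinc finger partner of Ciita, had 7.58, 9.31 and 9.59 in CD133 high and 7.85, 8.00 and 7.83 in CD133 low. Creb1, which binds the X box region, had 9.30, 10.25 and 10.23 in CD133 high and 9.07, 8.98 and 9.47 in CD133 low. Neither passed (limma, adjusted p = 0.381 and 0.306).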
